A study of Mus musculus with 8 samples.

Results

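Smooth muscle rich vessel spots were places on the 8 brain sections where several transcripts of arterial and venous wall muscle were captured in 1 spot. A spot of the array is a capture area of about 55 micrometres, so each one can hold several cells of different types. Of 22096 spots under tissue, 21328 had at least 200 detected genes and at most 30% mitochondrial transcripts and were kept. A kept spot was counted as a vessel spot when it held 4 or more unique molecules (UMIs, each 1 captured transcript) of the smooth muscle genes Acta2, Tagln and Myh11 summed, and fewer than 3 UMIs of the meningeal genes Fmod, Aldh1a2, Slc6a13, Ogn and Slc13a4 summed. In all, 243 spots met this rule, which is 1.14% of the kept spots. The spots were thus chosen by measured values, and levels of those 8 genes are given below as a description, with no test.

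The sections came from p16-3MR mice, in which the promoter of the senescence gene p16 drives the 3MR reporter, so that cells with an active promoter can be removed with ganciclovir. The labels give all mice as male, 9 to 10 months old and of the genotype wild-type p16-3MR, with brains taken 6 months after paclitaxel, although 1 Control title speaks of a young brain. Control mice received the vehicle, DMSO with saline. PTX mice received paclitaxel at 5 mg/kg/day in 2 cycles of 5 days with 7 days between them. PTX+GCV mice received in addition ganciclovir at 25 mg/kg/day, and PTX+ABT263 mice the BCL-2 family inhibitor ABT263 (navitoclax) at 1.5 mg/kg/day, both in 2 cycles of 5 days. Each group had 2 sections. Where values of all 8 follow each other, the order is Control 1 and 2, PTX 1 and 2, PTX+GCV 1 and 2, then the pair labelled PTX+ABT263. The labels do not say whether the sections of a group came from different mice, so all p-values measure only the spread between sections. Brains were rinsed with PBS through the circulation, frozen and cut at 10 micrometres. The kept spots held 19870666 to 42886400 UMIs per section. Both sections labelled PTX+ABT263 contained Xist, the transcript of the inactive X chromosome of females, at 15.1 and 20.4 CPM (UMIs scaled to a total of 1000000) in the vessel spots, and no UMI of the Y-linked gene Ddx3y there. In the vessel spots of the other 6 sections Xist had 0 UMIs and Ddx3y 29.2 to 41.0 CPM. This goes against the label male, so the group is written as sections labelled PTX+ABT263, and counts are also given without it.

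Vascular smooth muscle cells wrap arteries, arterioles and, more loosely, veins, and they set vessel diameter by contracting on alpha-actin, myosin and tropomyosin filaments anchored to an elastic wall. In the brain these cells carry the change in vessel diameter that matches blood flow to neuronal activity. Capillaries lack them and are covered by pericytes, which share part of the muscle programme but little of its contractile apparatus.

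The number of vessel spots was 21, 33, 50, 28, 23, 48, 16 and 24 over the 8 sections. As a share of kept spots this was 0.895% (exact Clopper-Pearson 95% interval 0.555 to 1.37) and 1.28% (0.885 to 1.80) in Control. It was 1.95% (1.45 to 2.57) and 1.02% (0.681 to 1.48) in PTX. In PTX+GCV the shares were 0.829% (0.526 to 1.24) and 1.69% (1.25 to 2.24), and in the sections labelled PTX+ABT263 they were 0.568% (0.325 to 0.921) and 0.893% (0.573 to 1.33). These intervals cover counting error only. The intervals of the 2 PTX+GCV sections did not overlap, and those of the 2 PTX sections overlapped narrowly.

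**Figure D1:**
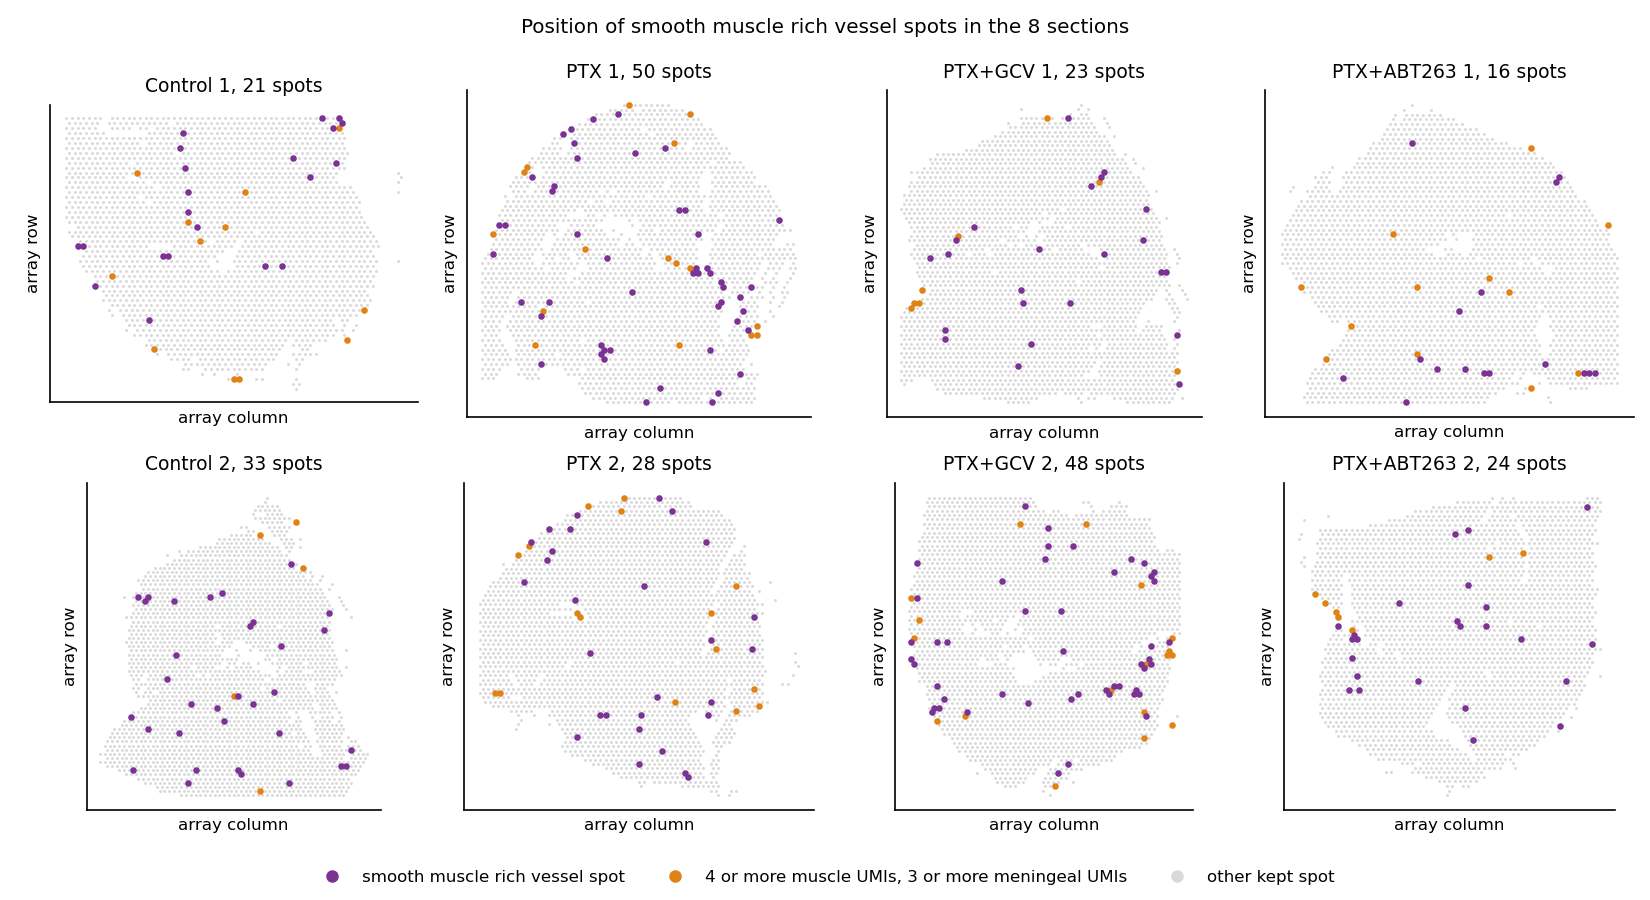
Position of the vessel spots (purple) on the array in the 8 sections, with the 94 spots that held 4 or more muscle UMIs but also 3 or more meningeal UMIs (orange) and all other kept spots (grey). Each panel is 1 section, the axes are array column and row, and the panel titles give the 16 to 50 vessel spots of each section, which lie along the outer border, in short runs and singly inside the tissue.

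A vessel spot held a median of 5 muscle UMIs, with a 90th percentile of 12 and a maximum of 47. Of the 1758 muscle UMIs in vessel spots, 66.3% were Acta2 (smooth muscle alpha-actin), 18.4% Myh11 (smooth muscle myosin heavy chain) and 15.3% Tagln (transgelin, an actin-binding protein). In 104 vessel spots all 3 genes were detected, in 105 a pair of them and in 34 only Acta2. The spot with the highest count lay in PTX 1 and held 38 UMIs of Acta2, 5 of Tagln and 4 of Myh11 among 31834 UMIs. Vessel spots held 30.0% of the 5867 muscle UMIs of all kept spots, while 87.1% of kept spots held none. At the threshold, 85 vessel spots had exactly 4 muscle UMIs, with 2.73 UMIs of Acta2 on average, and 122 spots with 3 muscle UMIs and few meningeal ones, with 1.89 of Acta2, stayed just outside. On the meningeal side, 42 vessel spots held 2 meningeal UMIs, 29 spots with enough muscle UMIs held 3 and were left out, and 113 vessel spots held none. A count threshold depends on depth. The median vessel spot held 9313, 13304, 20965, 15156, 9137, 15273, 11988 and 10461 UMIs over the 8 sections, and the median of the other kept spots 7570 to 15625.5. Vessel spots had the higher median in 6 sections and the lower in both sections labelled PTX+ABT263 (13470 and 12300 in the other spots there).

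The 3 muscle genes of the rule were concentrated in these spots, as the rule requires. Summed over vessel spots, Acta2 averaged 339 CPM, against 18.0 in the 1090 spots that touch a vessel spot and 7.7 in 4134 nearby spots, which lie 2 or 3 array steps away. Myh11 averaged 95.6, 6.3 and 3.2 CPM and Tagln 76.2, 4.1 and 2.2 in the same places. The 5 meningeal genes of the rule were also higher in vessel spots, although both kinds of spot held fewer than 3 meningeal UMIs. Their mean CPM relative to nearby spots was 6.85-fold for Slc6a13 and 6.31-fold for Fmod, each higher in 8 of 8 sections. It was 4.58-fold for Ogn and 4.56-fold for Aldh1a2 (7 of 8 each), and 3.50-fold for Slc13a4 (6 of 8).

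Promoters are shown for 1 muscle gene that the rule did not use and 1 that it used, because both belong to the programme that defines these spots. The contractile programme is known to be driven by serum response factor with myocardin at the CArG box, a short element of CC, 6 bases that are A or T, and GG. The sequences are the 250 bases before the transcription start of Myl9 (chr2:156775214-156775463, plus strand) and of Acta2 (chr19:34255374-34255623, minus strand) from RefSeq on GRCm38.p6, in 5′ to 3′ direction, with the CArG box in capitals.
Myl9: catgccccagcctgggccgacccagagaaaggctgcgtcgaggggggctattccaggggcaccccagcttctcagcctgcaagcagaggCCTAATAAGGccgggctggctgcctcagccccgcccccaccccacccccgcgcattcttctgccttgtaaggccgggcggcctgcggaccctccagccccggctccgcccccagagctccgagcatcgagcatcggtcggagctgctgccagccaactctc
Acta2: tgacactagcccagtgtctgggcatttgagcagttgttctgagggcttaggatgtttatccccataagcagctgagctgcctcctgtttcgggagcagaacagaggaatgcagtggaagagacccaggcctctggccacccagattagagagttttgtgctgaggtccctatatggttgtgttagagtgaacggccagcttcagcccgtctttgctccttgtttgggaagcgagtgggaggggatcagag
The box in the Myl9 promoter begins at position -161 from the start, and in the Acta2 window no exact match was found. Only exact matches were searched and put in capitals. The printed Acta2 bases include ccctatatgg and ccttgtttgg, which each differ from the element at 1 base, so the Acta2 window is not shown to lack such boxes. The box reads the same on both strands in this search, and windows of 300 bases (250 before and 50 after the start) were searched. Of 324 genes higher in vessel spots (described next), 251 had a window and 10 of these held a CArG box (3.98%), against 1.58% of the 8972 tested genes with a window and 1.81% of all 27025 genes. Those 10 genes were Anxa5, Cnn2, Filip1l, Hes5, Igf2, Lmcd1, Myl6, Myl9, Selenbp1 and Vcl, of which Myl9 alone is on the list of contractile genes. These shares describe the windows and were not tested.

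To learn what else marked the vessel spots, their summed counts were compared with those of the nearby spots of the same section, with the 8 rule genes left out. Of 11288 genes tested, 324 were higher in vessel spots (2.87%) and 98 were lower (0.868%) at a Benjamini-Hochberg adjusted p under 0.05 (edgeR quasi-likelihood test with the section as a block, 8 sections). Of these, 196 of the higher and 47 of the lower genes differed in the same direction in all 8 sections, and 142 of the higher but 7 of the lower differed by more than 2-fold. The median over all tested genes was 0.00 on the log2 scale. Without both sections labelled PTX+ABT263, 284 genes were higher and 73 lower, and of the genes named below Tpm1, Rgs5, Pdgfrb and Aldoc no longer passed while Ttr did (-0.82). In sums over spots, more cells of a type and more RNA per cell cannot be told apart.

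The contractile apparatus was higher as a group, and none of these genes was used by the rule. Nearby spots, however, held fewer than 4 muscle UMIs by the rule. For genes that rise with muscle UMIs the difference is thus partly set by the rule, and is not independent evidence for the label. Of 20 listed contractile genes outside the rule, 15 were expressed enough to be tested, 11 were higher in vessel spots and none lower, with a median log2 fold change of 1.87. Myl9, the regulatory light chain of smooth muscle myosin, stood at 182, 162, 119, 204, 172, 172, 204 and 241 CPM in the vessel spots of the 8 sections (normalised by TMM, as for all tested genes). In the nearby spots it stood at 13.1 to 19.1 CPM, so that the ranges did not overlap, and the log2 fold change was 3.54 ± 0.10 (SE, adjusted p = 6.59e-27). The other parts of the filament system followed with smaller numbers of molecules. Lmod1 (leiomodin, which starts actin filaments) was higher by 4.59 ± 0.44 (adjusted p = 2.03e-10), at 7.44 to 13.2 CPM in vessel spots against 0 to 0.831 nearby. Des (desmin, the intermediate filament of muscle) was higher by 3.59 ± 0.36 (adjusted p = 7.58e-10) and Tpm2 (beta-tropomyosin) by 2.71 ± 0.14 (adjusted p = 7.35e-19), both in 8 of 8 sections. Flna (filamin A, an actin crosslinker) was higher by 2.40 ± 0.12 and Mylk (myosin light chain kinase, which switches contraction on) by 1.87 ± 0.15. The remaining members that passed were Cald1, Pln, Smtn, Mustn1 and Tpm1.

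Some listed genes are expressed by neurons too. Tpm1 (alpha-tropomyosin) was at 149 to 201 CPM in vessel spots and 123 to 154 nearby, a log2 fold change of 0.25 ± 0.07 (adjusted p = 0.031). For Pcp4l1 the difference was 0.02 ± 0.07 (adjusted p = 0.978). Cnn1 (calponin), a classical muscle marker, was too sparse to be tested: it averaged 4.2 CPM in vessel spots, 14 UMIs in all, against 0.4 in nearby spots.

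**Figure D2:**
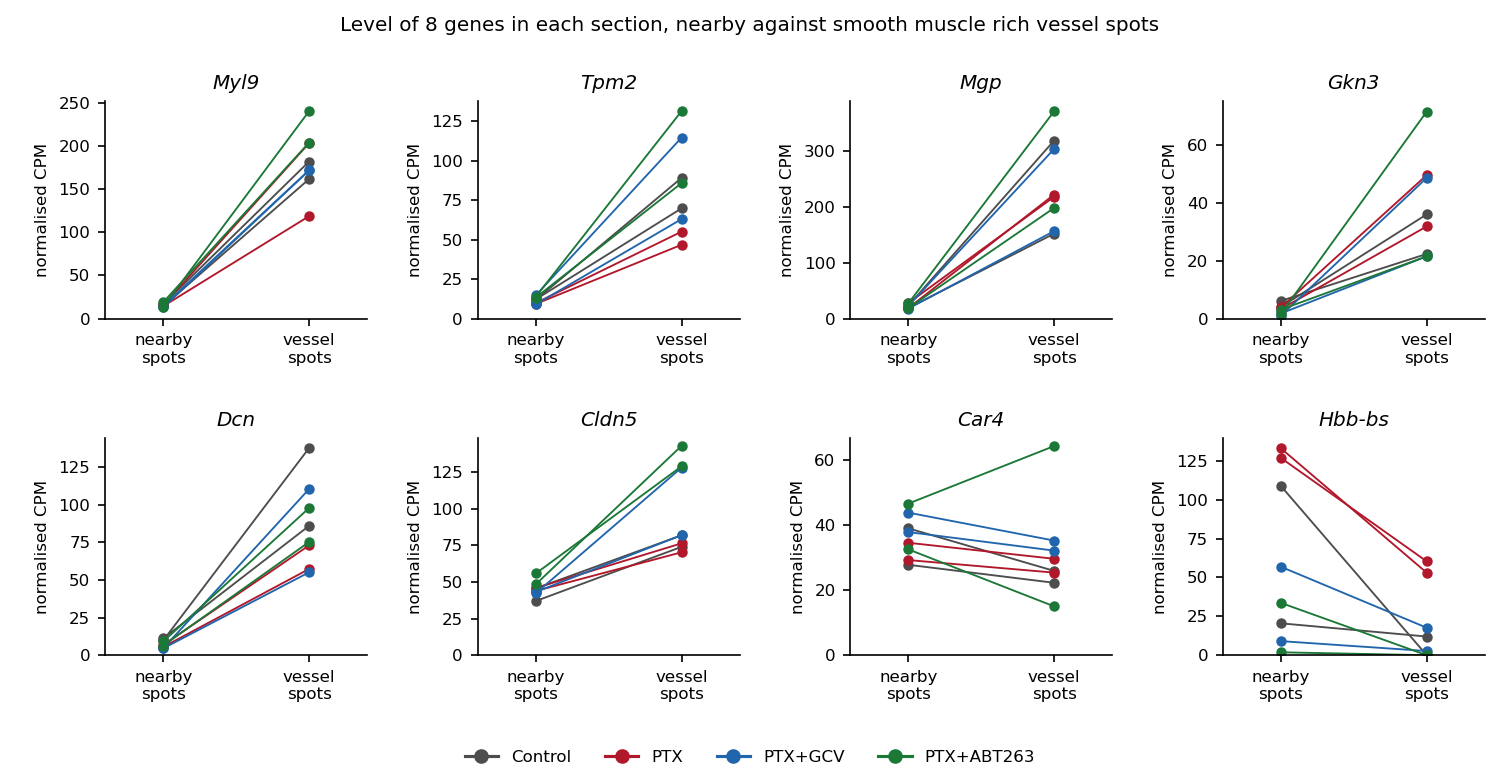
Normalised CPM of 8 genes in nearby spots and in vessel spots, 1 line per section, coloured by group. Myl9, Tpm2, Mgp, Gkn3, Dcn and Cldn5 were higher in the vessel spots of all 8 sections, Car4 was higher in 1 of 8, and Hbb-bs was lower in all 8.

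Few signalling genes of smooth muscle passed. Of 18 listed channels, receptors and cyclic nucleotide enzymes, 11 were tested and 2 were higher, Rgs5 and Pde5a, with a list median of 0.07. Rgs5, a regulator of G protein signalling found in pericytes and muscle, was at 46.0 to 112 CPM in vessel spots and 33.5 to 62.5 nearby (log2 fold change 0.47 ± 0.12, adjusted p = 0.00946). Rgs4, Itpr1 (the inositol trisphosphate receptor) and Gucy1b1 (soluble guanylate cyclase), which neurons also express, differed by -0.07, -0.09 and -0.11 and did not pass. Of the transcription factors and state genes, 5 of 9 tested were higher: Vim, Heyl, Spp1, Nr2f2 and Klf2. Vim (vimentin) was at 91.3 to 167 CPM in vessel spots against 20.5 to 37.7 nearby, a log2 fold change of 2.20 ± 0.10 (adjusted p = 3.49e-20). Nr2f2, a nuclear receptor that specifies veins, differed by 0.53 ± 0.11 (adjusted p = 0.00133). Mef2c (-0.20) and Nr2f1 (0.22) did not pass.

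Pericyte genes were present but split. Of 14 listed, 8 were tested and 4 were higher (Slc6a20a, Vtn, Notch3 and Pdgfrb), with a median of 0.79. Vtn (vitronectin), secreted by pericytes, was at 78.1 to 134 CPM against 56.1 to 68.6 nearby, a log2 fold change of 0.73 ± 0.10 (adjusted p = 6.08e-07). Notch3, the receptor that maintains arterial muscle as well as pericytes, was higher by 1.60 ± 0.22 (adjusted p = 1.34e-06). Other pericyte genes did not pass: Atp13a5 differed by -0.29 ± 0.35 (adjusted p = 0.82), Cspg4 by 0.77 ± 0.26 (adjusted p = 0.105), and the pericyte potassium channel gene Kcnj8, too sparse to be tested, averaged 1.9 CPM in vessel spots and 4.3 in nearby spots.

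Endothelial genes were higher as well. Of 18 endothelial genes common to all vessels, 17 were tested and 11 were higher, with a median of 0.70. Cldn5, the tight junction protein of the blood-brain barrier, was at 70.2 to 143 CPM in vessel spots and 37.0 to 55.8 nearby, with no overlap (log2 fold change 1.0 ± 0.11, adjusted p = 3.81e-09). Flt1 was higher by 0.98 ± 0.13 and Ly6c1 by 1.01 ± 0.10 in 8 of 8 sections, and Pecam1 by 1.38 ± 0.20 in 7 of 8. Slc2a1, the glucose transporter of the barrier, was higher by 0.58 ± 0.09 (adjusted p = 5.54e-06), while Bsg, which neural cells also express, differed by 0.12 ± 0.05 (adjusted p = 0.257).

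Among genes of arterial endothelium and wall, the list median was larger. Of 18 listed, 13 were tested and 8 were higher (Jag1, Gja4, Cytl1, Gkn3, Fbln2, Mgp, Fbln5 and Clu), with a median of 1.71. Mgp (matrix Gla protein, an inhibitor of calcification made by muscle and arterial endothelium) had the smallest p of all genes. It stood at 152, 320, 219, 223, 305, 157, 199 and 372 CPM over the 8 sections, against 18.0 to 27.8 in nearby spots (log2 fold change 3.40 ± 0.10, adjusted p = 1.88e-27). Gkn3, a marker of arterial endothelium in the mouse brain, was at 21.5 to 71.4 CPM against 1.04 to 6.12 (3.60 ± 0.26, adjusted p = 6.66e-14). Clu, which astrocytes also express, was higher by 0.30 ± 0.05 (adjusted p = 9.78e-05).

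Capillary genes did not pass in either direction. Of 10 listed, 9 were tested, and the median was -0.12. Over all 11288 tested genes 2.87% were higher and 0.868% lower, so a list of 9 with none passing is near that share. Car4, a carbonic anhydrase of capillaries, was at 15 to 64.4 CPM in vessel spots and 27.9 to 46.7 nearby (-0.27 ± 0.14, adjusted p = 0.424). The transferrin receptor gene Tfrc differed by -0.36 ± 0.15 (adjusted p = 0.217), Spock2 by -0.12 and Rgcc by 0.04. At an unadjusted p under 0.05, 1495 of all tested genes passed. Venous genes were in between, with 4 of 6 tested higher, among them Vcam1, Vwf and Nr2f2, and a median of 0.77. Vwf (von Willebrand factor, a clotting protein of endothelium) averaged 33.6 CPM in vessel spots and 6.34 in nearby spots. The differences between these endothelial lists were not tested.

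Genes of the vessel wall and its sheath were higher in large part. Of 20 listed genes of basement membrane and elastic matrix, 14 were tested and 12 were higher, with a median of 1.18. Bgn (biglycan) was higher by 3.04 ± 0.20 and Ltbp4, which organises elastic fibres, by 1.54 ± 0.11, while Sparc, Sparcl1 and Mfge8, which glia also express, were higher by 0.34, 0.25 and 0.54. Perivascular fibroblast genes had a list median of 2.47, the highest of the 24 lists against nearby spots, with 7 of 11 tested higher: Serping1, Pcolce, Col1a2, Dcn, Lum, Col1a1 and Apod. Against all other kept spots the order of lists changed, with medians of 2.38 for perivascular macrophage, 2.00 for fibroblast, 1.77 for arterial and 1.49 for contractile genes. Dcn (decorin, which binds collagen fibrils) was at 55.0 to 138 CPM in vessel spots and 4.57 to 11.1 nearby, a log2 fold change of 3.50 ± 0.15 (adjusted p = 3.61e-21). Serping1 was higher by 3.06 ± 0.24, Apod by 1.24 ± 0.06, and Igfbp6 differed by -0.08 and did not pass.

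Meningeal genes outside the rule were higher although the rule limited meningeal UMIs. All 6 tested of 12 listed meningeal genes outside the rule were higher, with a median of 1.19. Igf2, a growth factor of the meninges, was at 36.3 to 226 CPM in vessel spots against 10.5 to 26.2 nearby (2.38 ± 0.18, adjusted p = 4.22e-13). Ptgds, a prostaglandin D synthase gene on the meningeal list, was at 1067 to 1929 CPM against 579 to 918 (1.01 ± 0.06, adjusted p = 1.08e-15). Foxc1 was higher by 2.19 ± 0.26 and Igfbp2 by 0.71 ± 0.13. Summed over the list, meningeal genes outside the rule averaged 1668 CPM in vessel spots (1224 to 2266 over sections), 781 in nearby spots, and 15854 in the 94 spots left out for their meningeal UMIs. Most of the sum in vessel spots and in nearby spots was Ptgds. The limit thus removed spots with far more transcripts of this list, and the part of the remaining ones in the fibroblast and matrix results was not tested.

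Perivascular macrophages live along larger vessels. Only 2 of 10 listed genes were expressed enough to be tested, and both were higher: the scavenger receptor gene Stab1 by 1.67 ± 0.25 (adjusted p = 8.47e-06) and the endocytic adaptor gene Dab2 by 1.35 ± 0.27 (adjusted p = 0.000809). The list sum was 55.6 to 105 CPM in vessel spots and 12.5 to 18.6 in nearby spots, with no overlap over the 8 sections. None of 12 microglial genes passed, with a median of 0.15, and C1qb differed by 0.13.

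Several genes with the smallest p-values are not particular to one cell type. Crip1, a LIM domain protein of muscle and fibroblasts, stood at 249, 210, 167, 151, 260, 146, 166 and 320 CPM over the 8 sections, against 18.1 to 29.2 in nearby spots (3.09 ± 0.11, adjusted p = 2.54e-24). Cavin1, a coat protein of caveolae, was higher by 2.20 ± 0.14, Tm4sf1 by 2.13 ± 0.14 and Id3, an inhibitor of differentiation factors, by 1.47 ± 0.10, each in 8 of 8 sections.

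Red cell transcripts went the other way. The 3 tested globin genes were lower in vessel spots. Hbb-bs (beta-globin) stood at 0, 12, 60.3, 53.0, 17.7, 2.69, 0 and 0 CPM over the 8 sections. In the nearby spots of the same sections it stood at 109, 20.5, 127, 133, 56.8, 9.04, 33.6 and 1.87 CPM. It was lower in all 8 sections, by a log2 fold change of -1.42 ± 0.18 (adjusted p = 1.69e-07), and Hba-a1 and Hba-a2 were lower in 7 of 8 (-1.62 ± 0.25 and -1.49 ± 0.24). These transcripts were patchy: of 7457 globin UMIs in nearby spots, 87.2% lay in the 207 richest spots, the top 5%, and 195 globin UMIs were found in 60 of the 243 vessel spots.

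Part of the oligodendrocyte and neuronal genes were slightly lower and part of the astrocyte genes slightly higher. Of 12 oligodendrocyte genes, 6 were lower and none higher, with a median of -0.25. Mbp (myelin basic protein) fell by 0.32 ± 0.05 on the log2 scale in 8 of 8 sections (adjusted p = 5.65e-06). Mobp fell by 0.33 and Cnp fell by 0.27. Of 12 neuronal genes 3 were lower, Snap25 (-0.28 ± 0.05), Nrgn (-0.21 ± 0.05) and Slc17a7, with a median of -0.09. Of 14 astrocyte genes 6 were higher, among them Aldoc (0.20 ± 0.05) and Slc1a3 (0.29 ± 0.06), with a median of 0.21. Among the neuronal genes lower in all 8 sections, Hpca (hippocalcin) was at 199 to 339 CPM in vessel spots and 279 to 493 nearby (-0.51 ± 0.06, adjusted p = 3.85e-08). The transcription factor genes Neurod6 of pyramidal neurons and Prdm8 differed by -0.92 ± 0.16 (adjusted p = 6.14e-05) and -1.18 ± 0.21 (adjusted p = 0.000107).

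**Figure D3:**
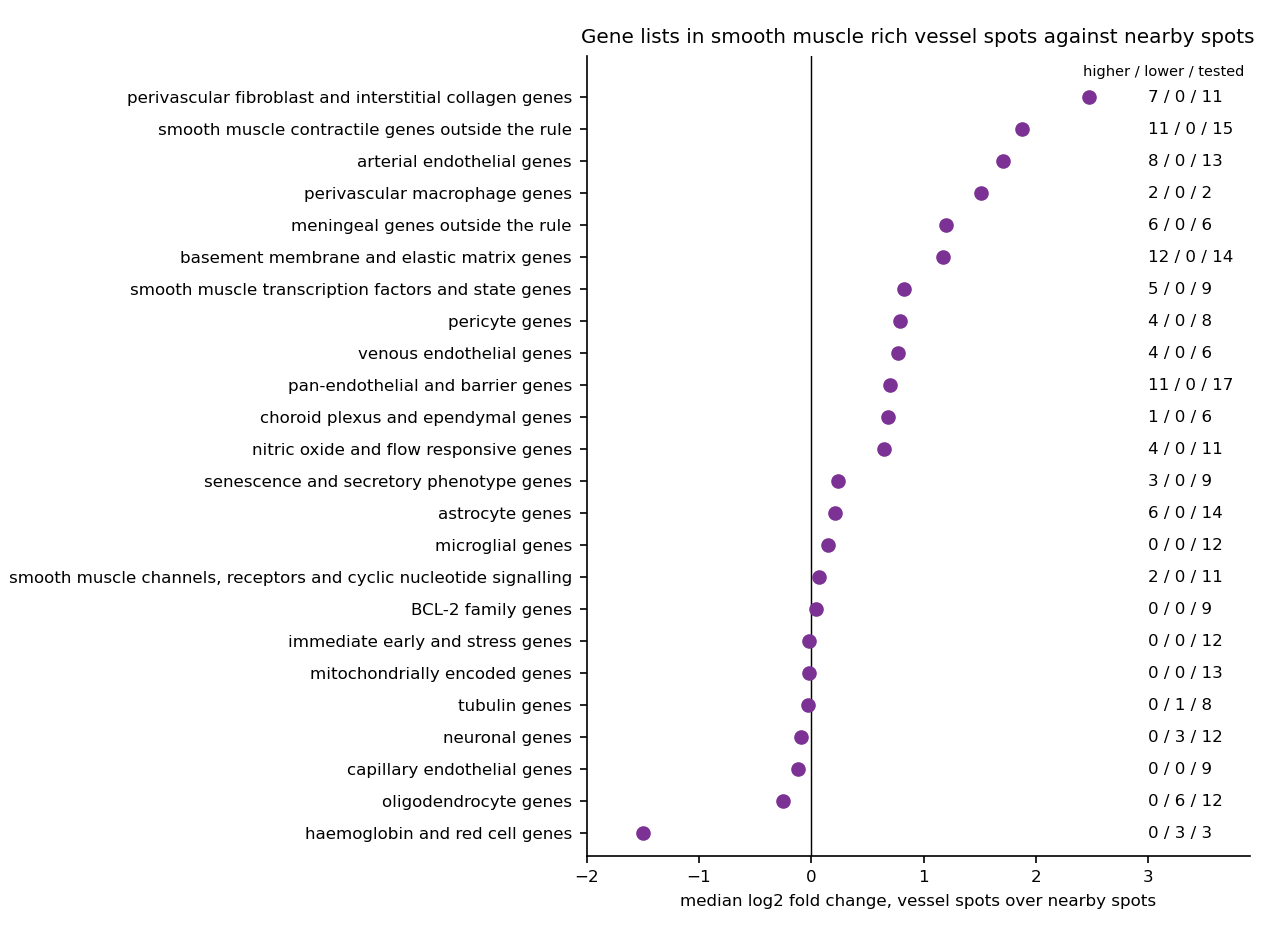
Median log2 fold change, vessel spots over nearby spots, of the tested genes of 24 lists, with the numbers higher, lower and tested at the right. Lists of fibroblasts, contractile muscle and arterial endothelium have the highest medians (2.47, 1.87 and 1.71), capillary endothelium lies at -0.12 and red cell genes at -1.49, beside a median of 0.00 over all tested genes.

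The lists also covered genes linked to the treatments. Among 9 tested senescence and secretory genes, 3 were higher: Igfbp7, an insulin-like growth factor binding protein made by vessels (1.54 ± 0.12, adjusted p = 2.68e-13), Igfbp5 (0.35 ± 0.10) and the metalloproteinase inhibitor gene Timp2 (0.27 ± 0.07). Of 11 tested genes for nitric oxide and flow responses, 4 were higher (Thbd, Nos3, Cav1 and Klf2), and Klf2, a factor induced by flow in endothelium, differed by 1.39 ± 0.15 (adjusted p = 2.46e-09). Of 8 tubulin genes 1 was lower (Tubb4a), and no gene of 9 in the BCL-2 family, 12 immediate early genes and 13 mitochondrially encoded genes passed. Cdkn2a, the p16 gene itself, had a UMI in 54 of the 21328 kept spots (0.253%). It had none in the 243 vessel spots, which allows a share of up to 1.23% and so does not exclude a share like that of all kept spots. Choroid plexus genes were uneven between sections: Ttr (transthyretin) was at 9726 CPM in the vessel spots of the section labelled PTX+ABT263 2 and at 133 to 2101 in the others, and did not pass (-0.20 ± 0.27, adjusted p = 0.858). Without that section its log2 fold change was -0.75.

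Levels of vessel genes fell from vessel spots to the spots around them. Touching, nearby and farther spots all held fewer than 4 muscle UMIs by the rule, and genes such as Myl9 rose with muscle UMIs. The fall is thus partly set by the rule and does not measure how far a vessel reaches. Myl9 averaged 179 CPM in vessel spots, 21.6 in touching spots, 15 in nearby spots and 12.4 farther away. Mgp (239, 32.8, 21.7 and 20.03), Crip1 (206, 35.4, 22.7 and 18.9) and Gkn3 (37.2, 5.9, 3.1 and 2.7) had the same order. In touching spots Mgp, Crip1 and Gkn3 were higher than in nearby spots in 8 of 8 sections and Myl9 in 7 of 8. Among genes expressed along all microvessels, Flt1 was also higher in touching than in nearby spots in 8 of 8 sections (26.7 and 23.6 CPM, with 49.1 in vessel spots). Vtn and Cldn5 were higher there in 3 of 8, with 105 and 96.4 CPM in vessel spots, 55.1 and 44.0 in touching spots, and 60.9 and 44.8 in nearby spots. The summed contractile genes outside the rule averaged 1034 CPM in vessel spots (846 to 1246 over sections), 533 in touching and 528 in nearby spots. Fixing the threshold at 4 muscle UMIs cut through a gradient: in spots with 0, 1, 2 and 3 muscle UMIs Myl9 averaged 11.6, 22.2, 42.0 and 65.9 CPM, and in vessel spots with 4 or 5 and with 6 or more it averaged 118 and 271. Mgp averaged 18.3 in the lowest and 350 in the highest of these classes.

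**Figure D4:**
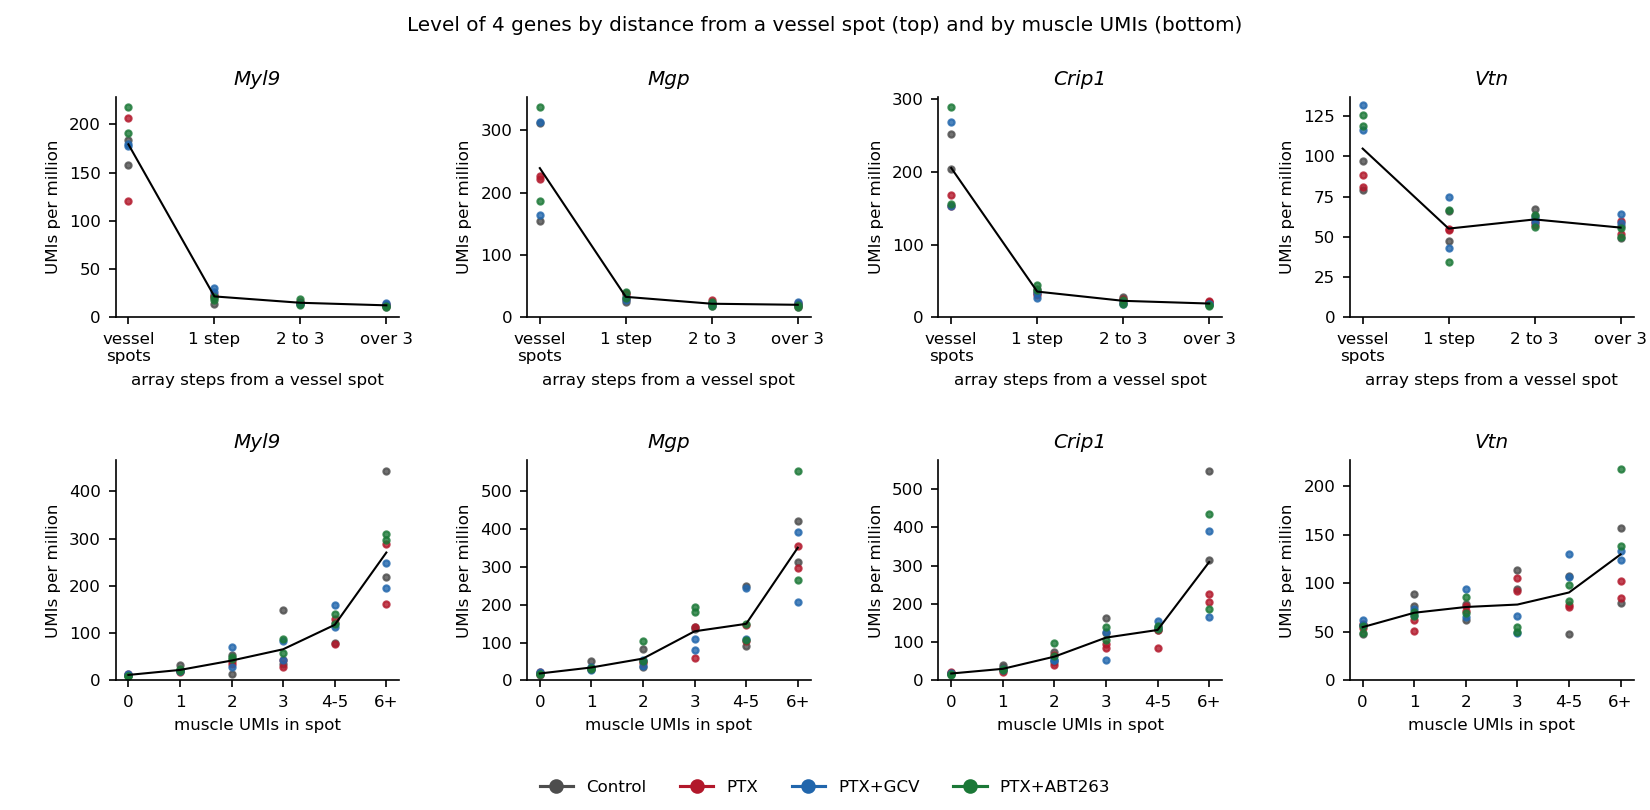
CPM of Myl9, Mgp, Crip1 and Vtn by array steps from a vessel spot (top) and by the number of muscle UMIs in the spot (bottom), with 1 point per section, coloured by group, and the mean as a line. Myl9 drops from a mean of 179 in vessel spots to 21.6 at 1 step, and climbs from 11.6 to 271 with muscle UMIs, while Vtn averages 105 in vessel spots and 55.1 at 1 step.

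A minority of vessel spots touched another one, and a minority lay near the tissue border. Among other kept spots both shares were lower in most sections. A vessel spot touched another in 73 of 243 cases (30.0%, 14.3 to 43.8% by section), and 2.78 to 8.13% of the other kept spots touched one. Within 2 array steps of the outer border lay 33.3%, 18.2%, 22.0%, 17.9%, 26.1%, 20.8%, 6.3% and 25.0% of the vessel spots over the 8 sections, and 8.77% to 15% of the other spots. The share was higher for vessel spots in 7 of 8 sections, by 8.27 ± 8.20 percentage points (SD, n = 8, exact sign-flip test, two-sided p = 0.0234, smallest possible 0.00781). Without both sections labelled PTX+ABT263 the difference was 9.77 points (exact p = 0.0313). With a stricter threshold of 6 muscle UMIs it was 6.86 points and did not pass (exact p = 0.117). The other kept spots included the 94 with enough muscle UMIs that were left out for their meningeal UMIs. The meningeal limit thus enters this comparison, and its part in the border difference was not tested.

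The 52 vessel spots near the border were compared with those inside the tissue. Other spots were not compared in this way, so whether the differences below are particular to vessel spots was not tested. Of 2829 genes tested in 7 sections, 122 were higher near the border (4.31%) and 50 lower (1.77%) at an adjusted p under 0.05 (edgeR with the section as a block). The section labelled PTX+ABT263 1 had too few vessel spots near the border and was not in the fit, and without the other section so labelled 108 were higher and 49 lower. The number depended on single sections, and was 60 without PTX 1 and 340 without Control 1. Olfm1, an olfactomedin expressed by neurons, was at 728 to 3194 CPM there and 434 to 1508 inside (1.19 ± 0.14, adjusted p = 1.71e-05), and Itpka, a kinase of dendritic spines, Enc1, Nptxr and Rasgrf2 were higher by 1.51, 1.33, 1.49 and 1.65. Of 12 neuronal genes 4 were higher near the border (Slc17a7, Nrgn, Syt1 and Camk2a) and Gad2 was lower, and of 7 oligodendrocyte genes 6 were lower. Prkcd, expressed in thalamic neurons, was at 5.75 to 49.2 CPM near the border and 133 to 661 inside (-4.74 ± 0.29, adjusted p = 1.19e-09). Pcp4 differed by -2.10, Mbp by -1.28 and Mobp by -1.58, each in 7 of 7 sections. Of 5 contractile genes that could be tested, Pcp4l1 was lower near the border and the others did not pass (list median -0.01), and none of 5 common endothelial genes passed.

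Across the 4 groups the question was whether PTX, and senolytic treatment after it, changed the number or the content of vessel spots. All 3 comparisons share the PTX sections. The share of vessel spots averaged 1.09% ± 0.275 for Control, 1.49% ± 0.658 for PTX, 1.26% ± 0.609 for PTX+GCV and 0.731% ± 0.230 for the pair labelled PTX+ABT263 (SD, n = 2 each). The differences were 0.400 percentage points for PTX against Control (exact permutation test, two-sided p = 0.667), -0.229 for PTX+GCV against PTX (exact p = 0.667) and -0.759 for the sections labelled PTX+ABT263 against PTX (exact p = 0.333). With 2 sections against 2 the smallest possible p is 0.333. Both values labelled PTX+ABT263 lay below both PTX values, and in the other 2 comparisons the sections overlapped. PTX 1, with the highest share, also had the highest median depth of its other kept spots, 15625.5 UMIs, and the part of depth in the shares was not tested beyond thinning. Kept spots with at least 5000 UMIs were also each thinned to 5000 UMIs. The share of vessel spots among them was 0.527%, 0.367%, 0.591%, 0.362%, 0.409%, 0.613%, 0.237% and 0.361% over the 8 sections. Spots with fewer UMIs were left out, and they numbered 739, 381, 320, 286, 634, 486, 328 and 198, so the sections kept unequal parts of their spots. The difference of PTX and Control was then 0.0295 points and that of PTX+GCV and PTX turned to 0.0347, and that of the sections labelled PTX+ABT263 and PTX was -0.177, with 1 section of each at nearly the same share. Without PTX 1 the observed difference of the last comparison was -0.293, and without PTX 2 it was -1.22. Over all kept spots, the 3 rule genes summed to 24.7, 18.6, 28.5, 20.5, 22.1, 27.8, 13.6 and 16.1 CPM over the 8 sections.

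**Figure D5:**
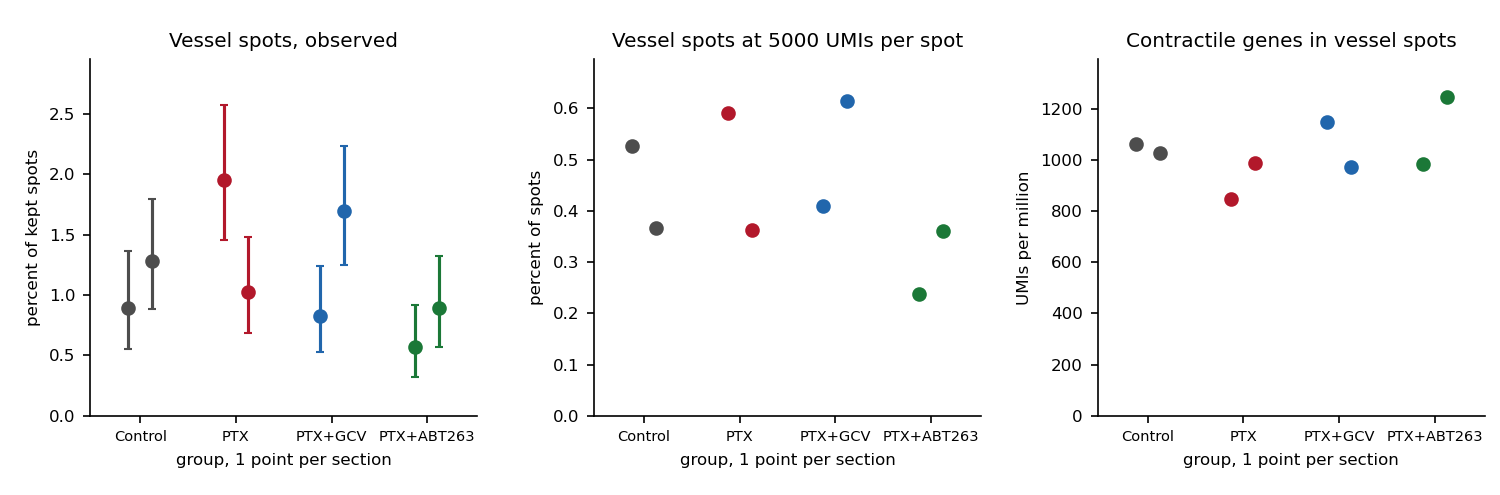
Share of vessel spots among kept spots with exact 95% intervals (left) and among spots with at least 5000 UMIs, each thinned to 5000 (middle). The right panel shows the summed contractile genes outside the rule in vessel spots. Each panel has 1 point per section. Observed shares range from 0.568% to 1.95% and the contractile sum from 846 to 1246 CPM, and Control, PTX and PTX+GCV overlap in the observed share.

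No gene passed in the vessel spots of PTX against Control (0% of 7296 tested, adjusted p under 0.05, edgeR over all 8 sections), although 269 had an unadjusted p under 0.05, and DESeq2 also called none. Among genes with a symbol other than a model number, the smallest adjusted p belonged to Npy (neuropeptide Y of cortical interneurons), at 23.6, 91.5, 265, 204, 200, 348, 207 and 143 CPM over the 8 sections. Its log2 fold change was 1.87 ± 0.35 (adjusted p = 0.104), and the sections of Control and PTX did not overlap. Hbb-bs (2.86 ± 0.63, adjusted p = 0.353) and Rgs11 (3.38 ± 0.83, adjusted p = 0.521) came next among the genes with a positive difference, each with 0 UMIs in Control 1. Lars2, a mitochondrial leucyl-tRNA synthetase gene, was at 571 and 237 CPM in Control and 76.3 and 140 in PTX (-1.92 ± 0.38, adjusted p = 0.109), and Cdr1os differed by -1.20 ± 0.28 (adjusted p = 0.473). These values depended on the Control section used. Without Control 1 and without Control 2 the difference was 1.37 and 3.32 for Npy and -1.23 and -2.49 for Lars2. That of Hbb-bs was 2.24 without Control 1, and no fold is given without Control 2, where the remaining Control section had 0 UMIs. All 3 genes passed in both cases. Hcrt (orexin, a peptide of lateral hypothalamic neurons) had 183 and 0 UMIs in the vessel spots of Control and 5 and 2 in PTX. Its log2 fold change of -6.07 ± 1.49 (adjusted p = 0.521) turned to 4.22 without Control 1, and so rested on that section.

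No vessel gene passed after PTX. Myl9 differed by -0.14 (95% interval -0.66 to 0.38), Flna by 0.07 (-0.48 to 0.63), Mgp by -0.15 (-0.79 to 0.49) and Crip1 by -0.52 (-1.08 to 0.05), none with an adjusted p under 0.05. The 12 tested contractile genes had a median of -0.19, with 4 positive, beside -0.01 for all tested genes, and the 10 common endothelial genes a median of 0.13. In simulated counts of this design a 1.5-fold change was called for 7.46% of changed genes, a 2-fold change for 46.3% and a 4-fold change for 92.4%. Beside them, 3 unchanged genes were called. The simulation gave all genes 1 common spread and, before the changes, the same proportions in every section. These values therefore do not cover genes that vary more between sections. Without 1 Control section the count was 92 (Control 2 left out) or 22 (Control 1 left out), with the other section assumed to vary like the remaining groups.

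Ganciclovir after PTX gave the same count. No gene passed in PTX+GCV against PTX (0% of 7296), with 149 at an unadjusted p under 0.05 and none by DESeq2. Hcrt (7.14 ± 1.42, adjusted p = 0.278) had 295 and 84 UMIs in PTX+GCV, and Pmch (melanin-concentrating hormone, also of the lateral hypothalamus; 6.70 ± 1.59, adjusted p = 0.957) had 25 and 937 UMIs there and 11 and 0 in PTX. Hbb-bs differed by -3.11 ± 0.63 (adjusted p = 0.278), Opalin, a gene of oligodendrocytes, by -1.41 ± 0.44, Spns1 by -0.96 ± 0.31 and Cmbl by 1.65 ± 0.46. Myl9 differed by 0.14 (-0.37 to 0.66), Flna by 0.13 (-0.39 to 0.66) and Mgp by -0.02 (-0.67 to 0.62). The contractile list had a median of 0.10 with 8 of 12 positive, beside a median of -0.0025 for all tested genes.

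In the sections labelled PTX+ABT263 against PTX, 1 of 7296 genes was higher (0.0137%) and none lower, with 510 at an unadjusted p under 0.05. This gene was Bc1, a short RNA of neurons, which stood at 32329, 38327, 26863, 18145, 29453, 19956, 38401 and 69950 CPM over the 8 sections (1.27 ± 0.21, adjusted p = 0.0389). Its level in the section labelled PTX+ABT263 1 was close to that of Control 2, and DESeq2 called no gene. Bc1 lost its call in 5 of 17 alternatives. Without the section labelled PTX+ABT263 2 its difference was 0.77 and Bc1 was not among the 5 genes that passed, without PTX 2 no gene passed, and without Control 1 the count was 87. Aldh1a1, a retinaldehyde dehydrogenase (1.44 ± 0.27), and the kinase gene Stk39 (1.45 ± 0.29) followed with an adjusted p = 0.0619 each, and the meningeal gene Igf2 differed by 1.75 ± 0.35 (adjusted p = 0.0619). The lowest p-values in the other direction belonged to Ddx3y and Eif2s3y, both Y-linked, and to Hbb-bs, which all had 0 UMIs in both sections labelled PTX+ABT263, so that no fold is given. Myl9 differed by 0.54 (0.01 to 1.08, adjusted p = 0.697), Crip1 by 0.66 (0.07 to 1.26, adjusted p = 0.657), Flna by 0.02 (-0.59 to 0.62) and Mgp by 0.42 (-0.24 to 1.09). The contractile list had a median of 0.59 with 10 of 12 positive, beside a median of 0.0022 for all 7296 tested genes. All 13 mitochondrially encoded genes were also positive (median 0.46), as were the 8 perivascular fibroblast genes (median 0.81), with no member past the threshold. These counts of signs were not tested, and genes of a list can vary together between sections. The 5 meningeal genes had a median of 1.0 and the 3 choroid plexus genes one of 3.13, and their part in these values was not tested. High levels of Ttr and Kl were found in only 1 section of this comparison, PTX+ABT263 2. As normalised for the group comparisons, Ttr stood there at 10267 CPM, against 684 in PTX+ABT263 1 and 545 and 594 in PTX. Kl stood at 123, against 11.5 and then 12.2 and 0, and Rarres2 at 39.7, against 28.8 and then 20.7 and 35.4.

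Finally, each treatment difference in vessel spots was set against that in the nearby spots of the same sections (limma on within-section differences of log2 CPM). None of 7296 genes passed for PTX against Control or for PTX+GCV against PTX (0% in each), with 172 and 108 at an unadjusted p under 0.05. For the sections labelled PTX+ABT263 against PTX 1 gene passed (0.0137%, with 364 at an unadjusted p under 0.05). It was Ddx3y, which had 0 UMIs in the vessel spots of both those sections. In simulated counts a 2-fold difference of this kind was called for 4.48% of changed genes and a 4-fold difference for 74.2%, so few differences of 2-fold or less could have been detected at this depth.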

How the data were processed

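The authors made 10 micrometre coronal sections on Visium arrays (spots of 55 micrometres, 100 micrometres apart) and deposited raw UMI counts per gene and spot, made with Space Ranger 1.2.1 on mm10 per the file headers; the submitters' processing notes also name Seurat 4.0. All 32285 features were read. Barcodes are array positions, so 4042 of the 4764 kept barcodes occur in more than 1 section and 712 in all 8. Doublet calling was not used, since spots are not cells.

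Counts were summed per section over vessel spots and over nearby spots and tested with edgeR 4.0.16 (R 4.3.3, quasi-likelihood, TMM scaling, Benjamini-Hochberg adjustment), with DESeq2 1.42.0 as an alternative and limma 3.58.1 for differences of differences. The comparison of border and inside needed 5 vessel spots on each side in a section. The 8 rule genes were left out of the tests. List sums and levels by distance are CPM without TMM. Python 3.11.15, numpy 2.4.6, scipy 1.17.1, pandas 2.3.3 and matplotlib 3.10.9 were used for the rest. The members and the 24 lists (325 genes) were chosen with earlier results of these data known. Genes were named by rule: the 15 higher and 5 lower genes of smallest p that differed in all 8 sections, 5 in each direction for the border, the 3 smallest p in each direction between groups, and up to 4 of the most abundant tested genes of most lists, leaving out model numbers and mitochondrial genes. Igf2 in the group comparison and the list members named without values were chosen after their values were seen. Some genes that the rule names are not reported here. Exact intervals cover counting error only.

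The tests were tried on simulated counts, with 1 common spread for all genes of a comparison and, before the changes, the same proportions in every section. For vessel against nearby spots, 68.7% of genes changed 1.5-fold and 100% of those changed 2-fold were called (11518 genes). For border against inside these were 61.2% and 98.5% (2932 genes). Alternatives were other normalizations, filters, thresholds, reference spots and samples.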

Additional observations from a re-analysis of the deposited data

Results flagged for a closer look

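The difference between vessel spots and nearby spots changed between PTX and the sections labelled PTX+ABT263 for 1 gene, the Y-linked Ddx3y (limma on within-section differences, 3.68 on the log2 scale, adjusted p = 0.000526). The vessel spots and the nearby spots of both sections labelled PTX+ABT263 held 0 UMIs of Ddx3y. The value is then set by the prior count and the library sizes, and no fold can be given.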

How the results depend on the processing

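Vessel spots against nearby spots gave 422 genes, 857 without the low-count filter, 769 against all other kept spots, 248 with 6 or more muscle UMIs, and 330 to 437 without 1 section. For 58 named genes that passed, 809 of 862 alternative values kept direction and call, 53 lost the call and 0 reversed. Genes that had not passed and changed sign were Pcp4l1 (-0.055 without the filter, -0.12 with 6 or more UMIs, -0.019 to 0.034 without 1 section), Rgcc (-0.023 without the filter, -0.043 against all other kept spots, -0.055 away from the border, -0.10 to 0.10), Tmsb10 (-0.064, -0.011 and -0.0025 in that order, -0.11 with 6 or more UMIs, -0.065 to 0.04), Rgs4 (0.069 against all other spots, 0.020 with 6 or more UMIs), Ackr1 (-0.048 against all other spots, -0.030 away from the border, -0.039 to 0.19), Itpr1 (0.054) and Igfbp6 (0.085) with 6 or more UMIs, and Ttr (-0.75 to 0.043 without 1 section).

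Border against inside gave 172 genes, 88 by DESeq2, 268 without the filter, 54 with a border of 1 step and 60 to 340 without 1 section. The border difference was 6.86 points with 6 or more UMIs. The share difference of PTX and Control was -0.0656 to 0.865 points without 1 section, and that of PTX+GCV and PTX -0.695 to 0.236, and 0.0347 at equal depth.

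PTX against Control gave 0 genes, 25 without the filter, 6 with 6 or more UMIs, 22 over all kept spots and 0 to 92 without 1 section. PTX+GCV against PTX gave 0, and 8, 2, 4 and 0 to 9 in that order, and 6 with only these groups. The sections labelled PTX+ABT263 against PTX gave 1, and 48, 7, 25 and 0 to 87, 44 with only these groups, 0 without PTX+GCV, 0 by DESeq2, 3 by total counts and 4 away from the border. The runs over all kept spots were added after seeing the data. The highest counts came without Control 2 (92) and Control 1 (87), and PTX 2 gave 0 when left out; the causes were not tested. Myl9 changed sign over all kept spots (0.16, -0.0016 and -0.29 in the 3 comparisons) and with 6 or more UMIs (-0.049 for PTX+GCV), and was -0.53 to 0.25 and -0.24 to 0.53 in the first pair without 1 section. Hcrt was -7.19 to 4.22. The tests against nearby spots gave 0, 0 and 1 genes, 1 and 0 for PTX and PTX+ABT263 against all other kept spots, and 0 to 3, 0 to 1 and 1 to 60 without 1 section.

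With the replicate number as a block, the 3 group comparisons gave 4, 2 and 7 genes and the PTX+GCV test against nearby spots gave 1. Deviations of same-numbered sections correlated at -0.042 to 0.036 over all tested genes. This gives no sign that the numbers pair the sections, but a correlation over all genes cannot exclude it.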
